A study of Mus musculus with 9 samples.

Results

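The comparison described here set mice with intracerebral hemorrhage (ICH) that were treated with Laminaria against sham-operated mice. Of the 55401 genes in the deposited table, 16405 had a mean of at least 0.5 FPKM (fragments scaled by transcript length and library size) over the 6 libraries of these groups, and all of them were compared. Hemorrhage was modelled with an injection of autologous whole blood into the right basal ganglia of wildtype C57BL mice. The sham group (3 libraries, labelled day 3) had the needle insertion and no blood. The Laminaria group (3 libraries) had the hemorrhage and then Laminaria, with library 1 labelled day 4, library 2 day 5 and library 3 day 6. The vehicle group (3 libraries, day 3) had the hemorrhage and the vehicle that goes with Laminaria, and it served as the reference for hemorrhage alone. The labels give neither dose nor route, and the methods of the study describe no Laminaria but Leukadherin-1 (LA-1), an agonist of complement receptor CR3. Whether the label La stands for that agent could not be settled, so the group is called by its label. The days of the Laminaria libraries run with their numbers, and no other source was at hand to check them. As given, the labelled day differs between the Laminaria libraries and all others, so treatment and day cannot be told apart. The labels give basal ganglia as the source of the RNA.

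Blood in the brain parenchyma is met by microglia, the resident macrophages of the brain, and by monocytes and neutrophils from the circulation. These cells take up red cells and debris, break down heme through heme oxygenase and store or export the iron, while complement, cytokines and chemokines are released around the hematoma and astrocytes become reactive. Lists of genes for these processes and for the resident cells were drawn up, 39 in all, of which 21 stand for the injury response. In RNA of whole tissue, more cells of a type and more RNA per cell cannot be told apart.

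The libraries held 51307799 to 73553142 counts, of which 6.01% to 7.14% came from mitochondrially encoded genes. On the first principal component of the 9 libraries, which held 45.6% of the variance, the sham libraries stood at -63.6, -62.9 and -39.8. The Laminaria libraries stood at 4.47, -1.63 and 50.5, and the vehicle libraries at 11.2, 56.8 and 45.1. All Laminaria libraries thus lay on the side of the hemorrhage, with library 3 among the vehicle libraries and libraries 1 and 2 between the groups. The tissue label was checked against 21 genes of medium spiny neurons, the principal neurons of the striatum, and all were detected, at a summed 1437, 2098 and 2008 FPKM in sham 1, 2 and 3 and 1750, 1484 and 1076 in Laminaria 1, 2 and 3. Genes of the choroid plexus, which lies within the ventricles, were uneven, at 570, 111 and 1018 summed FPKM in the sham libraries and 90.1, 1852 and 1752 in the Laminaria libraries. Lymphocyte genes were at 12.6 to 20.3 summed FPKM in all 6 libraries, and only 3 of 19, Cd4, Trac and Trbc2, were high enough to be tested.

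**Figure D1:**
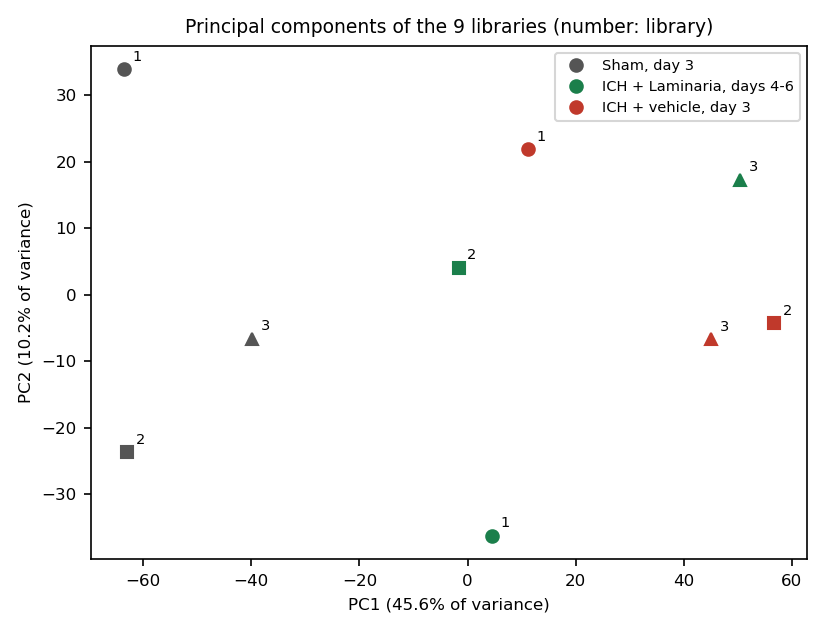
First and second principal component of the 9 libraries on log2 expression, coloured by group, with marker shape and number giving the library. The sham libraries lie at -39.8 or below on the first component and all 6 hemorrhage libraries at -1.63 or above.

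Only 3 of the 16405 genes (0.0183%) passed edgeR's quasi-likelihood test at an adjusted p under 0.05, and 2 of them were higher after hemorrhage with Laminaria. The first was Ccl7, a chemokine that draws monocytes. Its level, in CPM (counts scaled to a common library size), was 0.0979, 0.118 and 0.139 in the sham libraries and 1.77, 2.03 and 2.50 in the Laminaria libraries. Every Laminaria library was above 10 times the highest sham library. Ccl7 (ENSMUSG00000035373), on chromosome 11 from 82045712 to 82047525 (GRCm38), thus rose by 4.13 on the log2 scale (standard error, SE, 0.34, adjusted p = 0.047, edgeR). The sham side of this fold change rests on only 23 counts over 3 libraries, where a fragment appears to add several counts. Ccl7 was tested only because it was high after the hemorrhage, at a mean of 2.33 FPKM in the Laminaria group against 0.12 in sham. The vehicle libraries were at 2.32, 12.97 and 3.11 CPM for Ccl7, and the direct difference between Laminaria and vehicle was -1.53 on the log2 scale (SE 0.66, unadjusted p = 0.0562, edgeR).

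Tagln encodes transgelin, an actin-binding protein of smooth muscle and mural cells. It stood at 10.5, 12.6 and 14.9 CPM in the sham libraries and at 55.1, 43.8 and 58.8 in the Laminaria libraries, with a wide gap between the groups. Tagln, on chromosome 9 from 45929619 to 45936058, rose by 2.05 on the log2 scale (SE 0.18, adjusted p = 0.047, edgeR). The vehicle libraries were in the same range for Tagln, with 64.43, 63.95 and 48.03 CPM, and the direct difference between Laminaria and vehicle was -0.16 on the log2 scale (SE 0.16).

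The only gene that fell was Rpl35a-ps2, a processed pseudogene of a ribosomal protein gene on chromosome 1 from 181241988 to 181242320, which may share reads with its parent gene and its other copies. It was at 29.3, 28.7 and 26.1 CPM in the sham libraries and at 6.77, 7.18 and 8.92 in the Laminaria libraries. This is a log2 fold change of -1.88 (SE 0.14, adjusted p = 0.047, edgeR). The vehicle libraries were spread over the whole range, at 8.22, 20.9 and 32.1 CPM.

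All 3 calls lay close to the threshold. Ccl7 and Tagln did not pass when any 1 of the 6 libraries was left out, and Rpl35a-ps2 passed only without Laminaria 3. DESeq2, run on the same counts, called 1326 genes (1004 higher and 322 lower), among them these 3. At an unadjusted p under 0.05 edgeR had 1837 genes higher (11.2%) and 1107 lower (6.75%), and the libraries of the groups did not overlap for 2450 higher (14.9%) and 2064 lower genes (12.6%). The median log2 fold change of all genes was 0.01.

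The 21 injury lists together held 358 genes of the table, of which 309 were tested. Of these, 283 had a positive log2 fold change, 222 were higher and 3 lower at an unadjusted p under 0.05 by edgeR, and 1 (Ccl7) was called. DESeq2 called 188 of them higher and 3 lower. Their median log2 fold change was 1.26, and 0.95 without Laminaria 3. These counts over the injury genes, and those over lists given from here on, are descriptions. A gene that is nearly silent in the sham tissue was tested only where it was high after the hemorrhage. The lists and their members were also chosen with earlier results of these data known. The counts stand beside the shares over all genes, 11.2% higher and 6.75% lower at an unadjusted p under 0.05 by edgeR. DESeq2 called 1004 of all 16405 genes higher and 322 lower. Apart from Ccl7 and Tagln, no listed gene passed edgeR's test over all genes, and their values are given as measured.

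**Figure D2:**
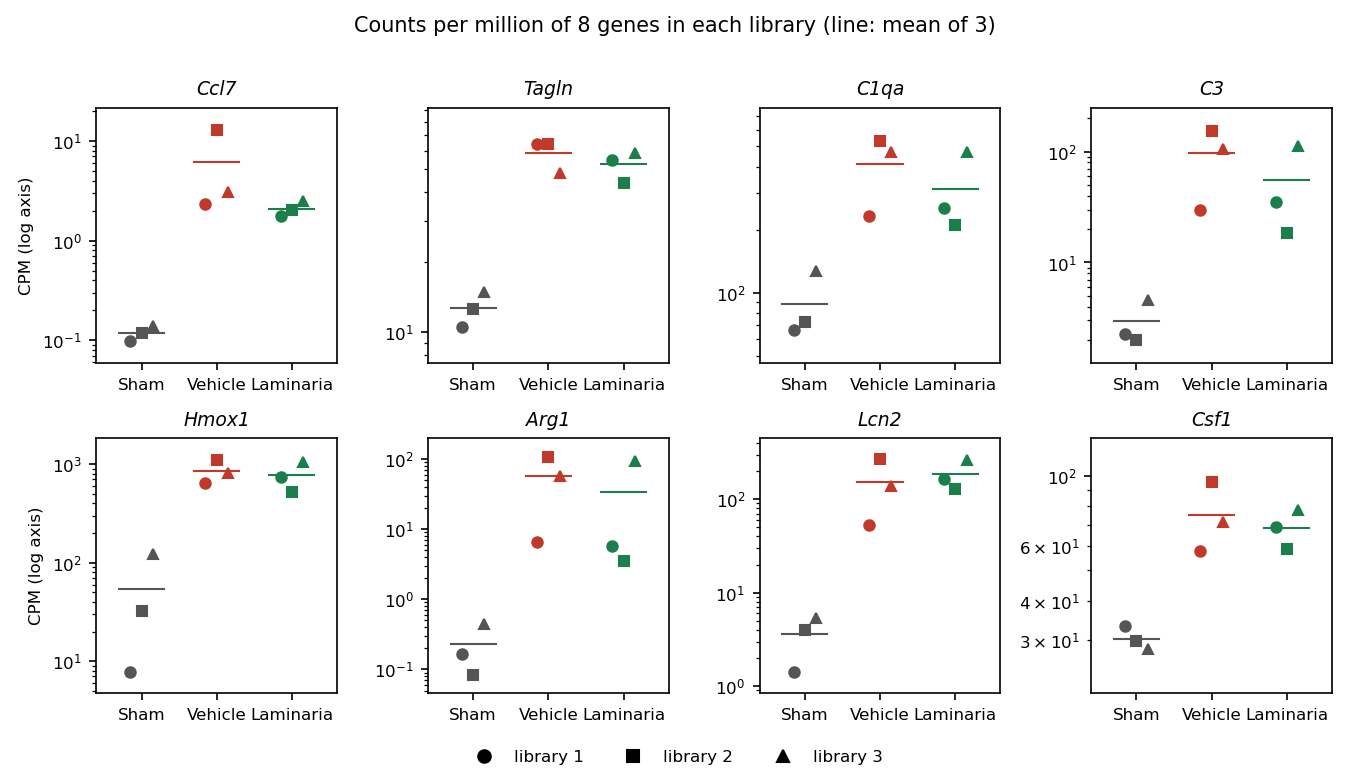
CPM (log axis) of 8 injury genes in the sham, vehicle and Laminaria libraries, with the marker shape giving the library and the line the mean of 3. For Ccl7, Tagln, C1qa, C3, Hmox1, Arg1, Lcn2 and Csf1 every Laminaria library lies above every sham library, and Laminaria 3 is the highest of its group.

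Beside Ccl7 and Tagln, the higher genes with the smallest p among those without overlap were Lcn2, Lrg1, Cxadr and Flnc, each with an adjusted p of 0.051 from edgeR. Lcn2, which encodes the iron-siderophore-binding acute phase protein lipocalin 2, was at 1.41, 4.02 and 5.40 CPM in the sham libraries and at 164, 128 and 262 in the Laminaria libraries. Its log2 fold change of 5.68 (SE 0.56) was the largest of these. Lrg1, a secreted glycoprotein of the acute phase, was at 0.979, 0.912 and 1.44 CPM against 15.2, 11.4 and 28.0. Cxadr, the coxsackievirus and adenovirus receptor, was at 8.68, 5.78 and 4.86 CPM against 31.8, 32.2 and 28.0, and its 3 Laminaria libraries were close to each other. Flnc, which encodes filamin C, had a log2 fold change of 2.46 and Procr, the endothelial protein C receptor, of 2.34 (adjusted p = 0.063, edgeR).

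The same rule named Csf1, Col4a1, Ccn5, Apobec3 and Cd36, with adjusted p-values of 0.071 to 0.092 from edgeR. Csf1, the growth factor on which microglia and macrophages depend, stood at 33.1, 29.7 and 28.0 CPM in the sham libraries and at 68.6, 58.7 and 78.2 in the Laminaria libraries. Cd36, a scavenger receptor of macrophages, stood at 0.629, 0.507 and 0.802 CPM and at 7.11, 4.68 and 13.2. The groups of neither gene overlapped, and for Cd36 the Laminaria libraries were themselves spread widely. The log2 fold change was 1.17 for Csf1, 1.47 for Col4a1 (a chain of basement membrane collagen), 3.003 for Ccn5, 1.82 for Apobec3 and 3.67 for Cd36.

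Complement genes were higher after hemorrhage with Laminaria than after sham operation. C1qa, C1qb and C1qc encode the 3 chains of C1q, which opens the classical pathway. C1qa (chromosome 4, 136895917 to 136898803) was at 66.6, 72.4 and 127 CPM in the sham libraries and at 253, 210.5 and 471 in the Laminaria libraries. The groups did not overlap, and sham 3 and Laminaria 3 were each the highest of their group. With 312 ± 140 CPM against 88.8 ± 33.5 (SD, n = 3 each), the log2 fold change of C1qa was 1.81 (SE 0.38, adjusted p = 0.104, edgeR). It was 1.82 for C1qb and 1.74 for C1qc.

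C3, the central component on which all complement pathways meet, was at 2.27, 1.99 and 4.58 CPM in the sham libraries and at 35.3, 18.4 and 114 in the Laminaria libraries. Its lowest Laminaria library was above its highest sham library, but the Laminaria libraries themselves were spread widely. The log2 fold change of C3 was 4.23 (SE 0.76, adjusted p = 0.092, edgeR). C4b, which carries the classical pathway on to C3, had a log2 fold change of 2.02. For Itgam, which encodes the CD11b chain of complement receptor CR3, the levels were 25.9, 34.1 and 47.2 CPM against 79.8, 71.4 and 95.3, a log2 fold change of 1.20 (SE 0.23). Its partner chain Itgb2 was at 2.31 and the anaphylatoxin receptor genes C3ar1 and C5ar1 at 3.02 and 3.50 on the log2 scale.

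Of the 22 complement genes listed, 20 were tested, 15 were higher at an unadjusted p under 0.05 by edgeR and none was lower. DESeq2 called 15 higher. The median log2 fold change of the list was 1.77, or 1.20 without Laminaria 3. The regulators Cd55 and Cd59a stood at 0.35 and -0.07 on the log2 scale, and Cfp, which encodes properdin, at 0.29, so not all members were apart.

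Myeloid genes had like differences. The summed level of 14 pan-myeloid genes was 145.5, 164 and 264 FPKM in the sham libraries and 615, 497 and 1141 in the Laminaria libraries. Laminaria 2, the lowest of its group, was above sham 3, the highest of its own. All 13 tested genes were higher at an unadjusted p under 0.05, with a median log2 fold change of 1.76, which was 1.42 without Laminaria 3 and 2.13 without sham 3. Genes of homeostatic microglia had a lower median of 0.81, and among them P2ry12, a purine receptor of resting microglia, was at 21.9, 23.4 and 26.4 CPM in the sham libraries and at 31.3, 21.3 and 36.8 in the Laminaria libraries, with overlap. Cx3cr1, the fractalkine receptor, was at 12.97 and 7.82 CPM in Laminaria 1 and 2 and at 171 in Laminaria 3, so its fold change rests on that library.

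Genes that microglia take on in disease had a median log2 fold change of 1.72, with 16 of 17 tested members higher at an unadjusted p under 0.05. Spp1, which encodes osteopontin, was at 25.7, 38.6 and 94.0 CPM in the sham libraries and at 510, 325 and 837 in the Laminaria libraries. Gpnmb, a glycoprotein of lipid-laden phagocytes, had a log2 fold change of 3.64 and Lyz2, the lysozyme gene of macrophages and neutrophils, one of 4.02. Apoe, the lipid carrier that resting astrocytes also make in large amounts, was at 1284, 850 and 1180 CPM against 1248, 989 and 1204, with overlap. Its log2 fold change was 0.05, and its sign changed without sham 2 or without Laminaria 1.

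Genes of monocytes and neutrophils had the highest median of the injury lists and were uneven between the Laminaria libraries. Of 21 listed, 11 were tested, with a median log2 fold change of 3.32, which was 2.13 without Laminaria 3 and 4.85 without sham 3. Arg1, arginase 1, was at 0.168, 0.0845 and 0.447 CPM in the sham libraries and at 5.82, 3.54 and 92.6 in the Laminaria libraries. Laminaria 3 stood far above the other two, and all 3 were above the sham libraries. Chil3, a chitinase-like protein of alternatively activated macrophages, had no count in the 3 sham libraries and stood at 2.29, 1.88 and 20.9 CPM in the Laminaria libraries, with library 3 holding most of it. Over the 3 Laminaria libraries it was at least 137-fold higher against a floor of 3 counting steps (11.3 counts) over the sham group, and at least 35.7-fold higher without Laminaria 3. The neutrophil gene S100a8 was at 0.0699, 0 and 0 CPM against 1.19, 0.344 and 4.27, and Ly6g, the defining neutrophil marker, had no count in any of the 6 libraries.

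Macrophages of the brain borders had a median log2 fold change of 2.57 over 8 tested genes, and 1.62 without Laminaria 3. Siglec1, sialoadhesin, had a log2 fold change of 4.49 and Mrc1, the mannose receptor, one of 1.49. Cd163, the receptor for hemoglobin bound to haptoglobin, was low throughout, at 3.96, 4.02 and 2.95 CPM in the sham libraries and at 4.75, 3.98 and 6.36 in the Laminaria libraries. The groups overlapped, and its log2 fold change was 0.46 (SE 0.25, adjusted p = 0.378, edgeR).

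Heme and iron genes did not move alike. Hmox1, heme oxygenase 1, which opens the heme ring, was at 7.84, 32.1 and 123 CPM in the sham libraries and at 739.5, 521 and 1056 in the Laminaria libraries. The sham libraries spanned more than a 10-fold range, yet all lay below the Laminaria libraries. With 772 ± 269 CPM against 54.3 ± 60.7 (SD, n = 3 each), the log2 fold change of Hmox1 was 3.82 (SE 0.95, adjusted p = 0.128, edgeR). Ftl1, the light chain of the iron store ferritin, was at 218, 254 and 457 CPM against 1222, 850.5 and 1316, and the heavy chain Fth1 at 2685, 2357 and 2398 against 3641, 3373 and 4450.0. Both chains were without overlap, with log2 fold changes of 1.86 and 0.62.

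Slc40a1, ferroportin, the iron exporter, had a log2 fold change of 1.45 (SE 0.19), Cp, the ferroxidase ceruloplasmin, of 2.07 and the endosomal iron transporter gene Slc11a1 of 2.49. Tfrc, the transferrin receptor for iron uptake, stood at 0.04, and Blvra, Ireb2 and Slc48a1 at 0.07 to 0.10. Relatives of these genes stood apart from them, with Slc11a2 at -0.07, the ferroxidase gene Heph at 0.41 and the biliverdin reductase gene Blvrb at 0.55. Over the 22 tested heme and iron genes, 13 were higher at an unadjusted p under 0.05 by edgeR and the median was 0.59, which was 0.34 without Laminaria 3. DESeq2 called 9 higher. Hpx, hemopexin, was at 9.45 CPM in Laminaria 1 and at 0.501 and 0.753 in Laminaria 2 and 3, so that 1 library carries its fold change. Hemoglobin transcripts, which mark blood in the tissue and come from near-identical gene copies, had log2 fold changes of 1.59 to 1.86, with Hbb-bs at 4.29, 5.07 and 4.80 CPM in the sham libraries and 27.6, 9.23 and 13.2 in the Laminaria libraries, and their part in the other values was not tested.

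Downstream of uptake, all 22 lysosome genes had positive log2 fold changes, from 0.25 to 2.30. Of them, 21 were higher at an unadjusted p under 0.05 by edgeR, and DESeq2 called 19. Their summed level was 877, 854 and 1231 FPKM in the sham libraries and 2184, 1878 and 3203 in the Laminaria libraries, with no overlap, and the median log2 fold change was 1.13. Ctsd, the protease cathepsin D, stood at 513, 552 and 1016 CPM against 2223, 1793 and 2883, whereas the membrane protein gene Lamp1 stood at 618, 506 and 548 against 624, 616 and 752. Phagocytosis and scavenging genes had a median of 1.60, or 1.08 without Laminaria 3. Msr1, the class A scavenger receptor, was at 4.78 and the Fc receptor genes Fcgr4 and Fcgr2b at 3.94 and 3.11 on the log2 scale, whereas Mertk and Mfge8, a receptor and a bridge for the uptake of dying cells, stood at 0.00 and -0.05.

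All 6 tested genes of NADPH oxidase, which makes superoxide in phagocytes, were higher at an unadjusted p under 0.05, and their median was 1.78 on the log2 scale. Rac2 stood at 2.57 and Ncf4 at 2.13. For oxidative defence the median was 0.56, and 0.35 without Laminaria 3. The cystine importer gene Slc7a11 stood at 27.7, 29.0 and 30.6 CPM in the sham libraries and at 39.0, 44.2 and 72.1 in the Laminaria libraries, without overlap. Gpx4, which reduces lipid peroxides, overlapped, at 318, 257 and 277 CPM against 267, 286 and 306.

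Interferon-stimulated genes are switched on by the factor ISGF3 through the interferon-stimulated response element (ISRE) in their promoters. The 250 bases before the start of 3 interferon genes are shown because these genes were the most abundant tested members whose window holds the ISRE core GAAANNGAAA on either strand, in capitals below. The sequences come from RefSeq annotation of GRCm38.p6, in the direction of transcription.
Ifit3 (chr19:34583279-34583528, plus strand): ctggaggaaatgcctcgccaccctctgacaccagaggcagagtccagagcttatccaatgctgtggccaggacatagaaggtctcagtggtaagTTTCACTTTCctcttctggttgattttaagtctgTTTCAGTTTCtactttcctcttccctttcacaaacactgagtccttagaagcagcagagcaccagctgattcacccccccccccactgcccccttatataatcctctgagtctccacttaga
Bst2 (chr8:71537473-71537722, minus strand): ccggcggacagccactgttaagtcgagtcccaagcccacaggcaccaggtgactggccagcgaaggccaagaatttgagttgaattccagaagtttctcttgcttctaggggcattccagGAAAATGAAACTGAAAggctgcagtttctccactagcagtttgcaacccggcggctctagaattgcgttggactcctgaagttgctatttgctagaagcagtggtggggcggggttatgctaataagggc
Gbp2 (chr3:142620413-142620662, plus strand): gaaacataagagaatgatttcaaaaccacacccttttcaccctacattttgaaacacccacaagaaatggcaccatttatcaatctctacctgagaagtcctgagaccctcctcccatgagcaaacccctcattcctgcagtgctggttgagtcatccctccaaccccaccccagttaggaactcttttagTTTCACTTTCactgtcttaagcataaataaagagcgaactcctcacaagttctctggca
The core begins 156 and 122 bases before the start in Ifit3, 130 and 124 bases before it in Bst2, where both copies overlap, and 59 bases before it in Gbp2. The window held the core in 10 of the 16 listed interferon genes with an entry (62.5%) and in 936 of all 27025 genes (3.46%). Both shares count a gene by any of its promoters and either strand. Counted per promoter, it was 978 of 32851 (2.98%). A match is a description of the letters only.

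Ifit3, an antiviral effector, was at 14.6, 13.5 and 19.2 CPM in the sham libraries and at 38.0, 32.2 and 59.6 in the Laminaria libraries. Bst2, tetherin, was at 7.79, 2.96 and 11.3 CPM against 20.8, 20.1 and 42.5. Both were without overlap, with log2 fold changes of 1.45 (SE 0.26) and 1.91 (SE 0.52). Gbp2, a guanylate-binding protein, overlapped through its sham 1 value, at 39.3, 9.82 and 13.8 CPM against 88.2, 41.9 and 29.7. Of 24 interferon response genes, 22 were tested and 19 were higher at an unadjusted p under 0.05 by edgeR. The median log2 fold change was 1.39, and DESeq2 called 16. The transcription factor genes Irf7 and Irf9 had log2 fold changes of 2.18 and 0.58.

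Among chemokines and their receptors, 20 of 24 were tested, 1 (Ccl7) rose and 16 were higher at an unadjusted p under 0.05. The median was 2.32, with 1.62 without Laminaria 3 and 2.92 without sham 3. Ccl2, the main attractant of monocytes, was at 0, 0.490 and 2.71 CPM in the sham libraries and at 11.2, 8.26 and 17.8 in the Laminaria libraries. Cxcl10, an interferon-inducible chemokine, was at 1.34, 0.558 and 4.13 CPM against 9.54, 7.84 and 9.79. Neither gene overlapped. Classical inflammatory cytokines were low. Il1b was at 0.0676 to 0.308 CPM in the sham libraries and at 0.376 to 2.88 in the Laminaria libraries, Tnf at 0 to 0.293 and 0.736 to 1.92, and neither reached the level for testing. Of the 9 cytokine genes tested, 5 were higher at an unadjusted p under 0.05, among them Il1a (2.01), Casp1 (2.32) and Tgfb1 (1.59) on the log2 scale, with a median of 1.13.

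Genes of antigen presentation had a median log2 fold change of 1.27, with 14 of 16 tested members higher at an unadjusted p under 0.05. Cd74, the invariant chain of MHC class II, was at 4.33, 3.36 and 7.40 CPM in the sham libraries and at 17.4, 9.83 and 36.7 in the Laminaria libraries. B2m, the light chain of class I, was at 117, 80.2 and 107 CPM against 191, 204 and 334. Both genes were without overlap.

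Astrocyte genes were divided by state. Of 20 reactive astrocyte genes, 19 were higher at an unadjusted p under 0.05 by edgeR, and the median log2 fold change was 2.07. DESeq2 called 17. Gfap, the intermediate filament protein of astrocytes, was at 323, 446 and 918 CPM in the sham libraries and at 2333, 1678 and 3993 in the Laminaria libraries. Serpina3n, a protease inhibitor of reactive astrocytes, was at 23.0, 37.6 and 109.9 CPM against 562, 378 and 1362. In both genes sham 3 was the highest sham library and still below every Laminaria library. The 15 genes of resting astrocytes had a median of 0.14, with 2 higher at an unadjusted p under 0.05, beside 11.2% of all genes.

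Genes of dividing cells were higher, 16 of 17 tested at an unadjusted p under 0.05, with a median log2 fold change of 1.78. Mki67, the proliferation marker Ki-67, was at 1.99, 3.92 and 6.82 CPM in the sham libraries and at 15.8, 11.4 and 32.1 in the Laminaria libraries. Matrix and fibrosis genes had a median of 1.11 over 21 tested, which was 0.54 without Laminaria 3. Fn1, fibronectin, was even in the sham libraries at 53 to 54 CPM and stood at 169, 129 and 279.5 in the Laminaria libraries. Of the matrix proteases, Mmp12 (macrophage elastase) was at 0.0559, 0.135 and 0.401 CPM against 3.91, 4.62 and 25.8, and Mmp3 was at 14.2 CPM in Laminaria 3 and at 0 and 0.250 in Laminaria 1 and 2.

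Of the vessel genes, 7 of 18 tested endothelial and barrier genes and 6 of 12 pericyte and smooth muscle genes were higher at an unadjusted p under 0.05, beside 11.2% of all genes. Vwf, von Willebrand factor of endothelium, was at 24.2, 26.4 and 21.3 CPM in the sham libraries and at 58.4, 63.0 and 122 in the Laminaria libraries, a log2 fold change of 1.76 (SE 0.29). Cldn5, the tight junction protein claudin 5, had one of 1.32 (SE 0.33). The endothelial and barrier genes had a median of 0.40, or 0.18 without Laminaria 3, with the glucose transporter gene Slc2a1 at -0.08 and Mfsd2a at 0.03. Of the pericyte and smooth muscle genes 1 (Tagln) rose, and their median was 0.44.

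**Figure D3:**
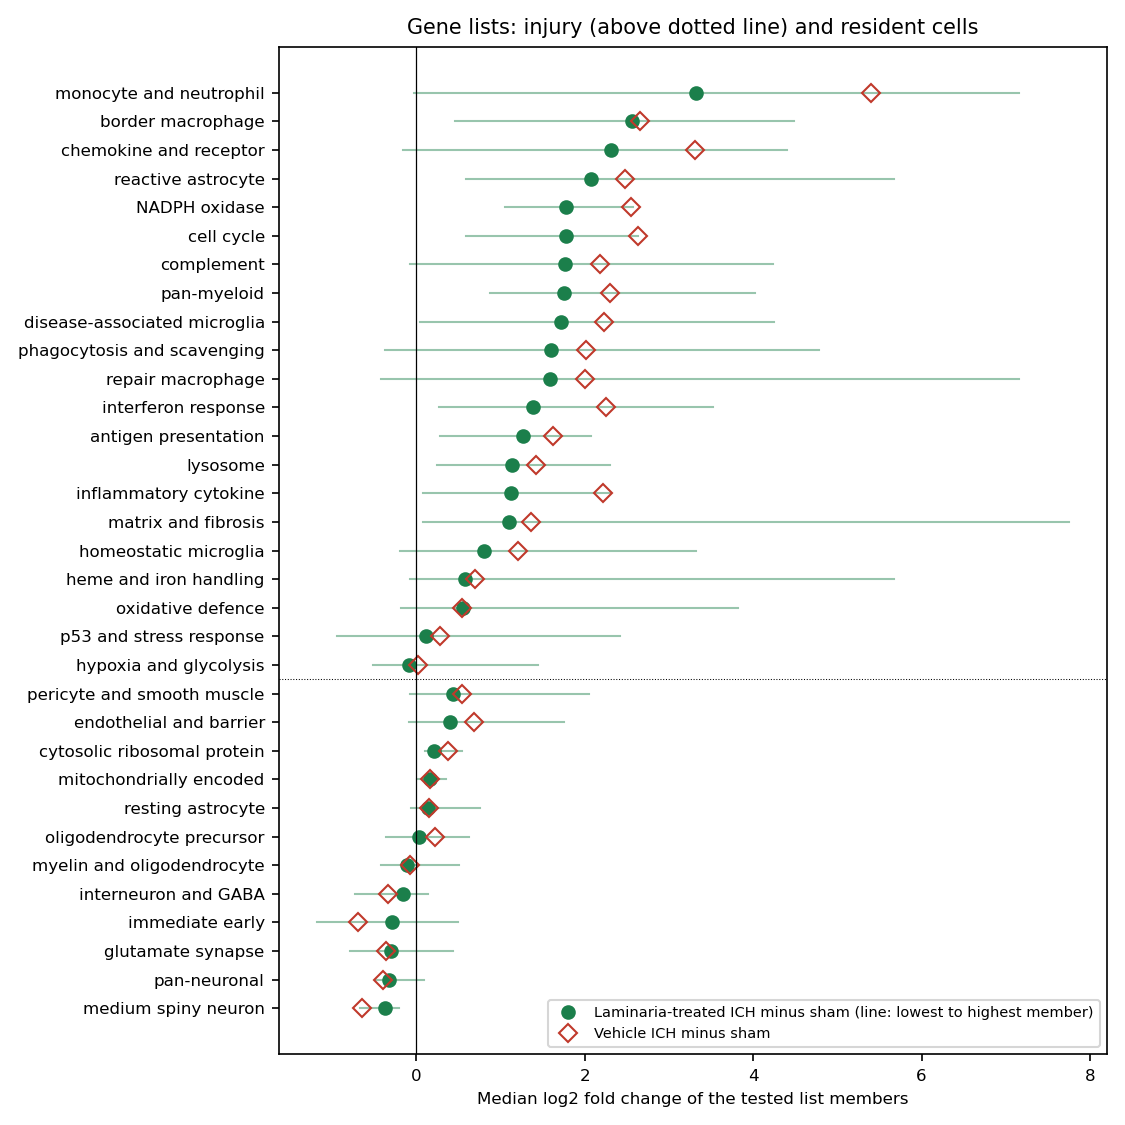
Median log2 fold change of the listed genes in each of 33 lists, with Laminaria against sham as green points, a line from the lowest to the highest member, and vehicle against sham as red diamonds; Chil3 is drawn at its lower bound. The green medians of the injury lists run from -0.08 to 3.32 and those of neuronal lists lie just below 0.

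Neuronal genes lay slightly below the sham level. All 21 genes of medium spiny neurons had a negative log2 fold change, from -0.66 to -0.20 with a median of -0.37, but none was lower at an unadjusted p under 0.05 by edgeR and DESeq2 called 0. Ppp1r1b, which encodes DARPP-32, was at 716, 1599 and 1153 CPM in the sham libraries and at 991, 672 and 534 in the Laminaria libraries. Penk, proenkephalin, was at 867, 1145 and 1197 CPM against 949, 874 and 706. Both genes overlapped between the groups. The list's median was -0.16 without Laminaria 3. Pan-neuronal genes had a median of -0.32, with 7 of 20 lower at an unadjusted p under 0.05 and 13 lower without overlap. Glutamate synapse genes had one of -0.30, with 7 of 22 lower at that p. Over all genes, 6.75% were lower at that p and 12.6% were lower without overlap.

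Among these, Eno2, the neuronal enolase, was at 857, 841 and 863.5 CPM in the sham libraries and at 690, 725 and 612 in the Laminaria libraries. Shank3, a scaffold of the postsynaptic density, was at 440, 496 and 490 CPM against 369, 321 and 202. Neither gene overlapped, and Laminaria 3 was the lowest library for both. Gad1, which makes GABA, had a log2 fold change of -0.53 (SE 0.16). Myelin and oligodendrocyte genes had a median of -0.11 and those of oligodendrocyte precursors one of 0.04, and both changed sign when 1 library was left out. Immediate early genes, which report recent neuronal activity, had a median of -0.28, with Egr1 at 237, 389 and 433 CPM against 299.5, 265 and 104.

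The lists for hypoxia and for the p53 and stress response stood apart from the other injury lists, with medians of -0.08 and 0.12. Of 17 tested genes in each, 2 and 3 were higher at an unadjusted p under 0.05 and 2 and 1 lower. The shares over all genes were 11.2% higher and 6.75% lower. Vegfa, the angiogenic factor, was at 62.7, 65.0 and 59.1 CPM in the sham libraries and at 43.8, 54.0 and 41.8 in the Laminaria libraries, with no overlap. Hk2, the inducible hexokinase, had a log2 fold change of 1.45 and the stress factor gene Atf3 one of 2.18.

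Besides Rpl35a-ps2, the lower genes with the smallest p were Helz and Umad1, each with an adjusted p of 0.051 from edgeR. Helz, which encodes a putative RNA helicase, was at 57.6, 68.4 and 59.1 CPM in the sham libraries, at 40.3, 48.3 and 46.4 in the vehicle libraries and at 23.2, 17.2 and 16.6 in the Laminaria libraries. Umad1 was at 42.2, 46.0 and 40.2 CPM in the sham libraries, at 35.6, 32.8 and 24.3 in the vehicle libraries and at 15.4, 16.0 and 11.3 in the Laminaria libraries. The Laminaria libraries of both genes were below all 6 others. The log2 fold change against sham was -1.70 (SE 0.15) for Helz and -1.59 (SE 0.16) for Umad1, and that against vehicle was -1.24 (unadjusted p = 0.000138, edgeR) and -1.11 (unadjusted p = 0.00132).

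The other 10 lower genes named by the same rule had an adjusted p of 0.092 each. Zbtb16, a transcriptional repressor that glucocorticoids induce, was at 40.2, 51.6 and 39.6 CPM in the sham libraries and at 4.37, 4.01 and 12.5 in the Laminaria libraries, a log2 fold change of -2.66 (SE 0.46). In the vehicle libraries Zbtb16 was at 4.54, 25.6 and 19.6 CPM, which overlaps the Laminaria range. H3c14, Lrrc57 and Mtmr4 had log2 fold changes of -1.36, -0.93 and -0.77, and the remaining 6 (Arhgap12, Ablim3, Myrip, Chn2, Zfyve1 and Arhgap39) had -0.69 to -0.46. Ablim3 and Chn2 were among the even ones, with Ablim3 at 45.6, 41.8 and 46.5 CPM against 28.7, 29.6 and 28.8.

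**Figure D4:**
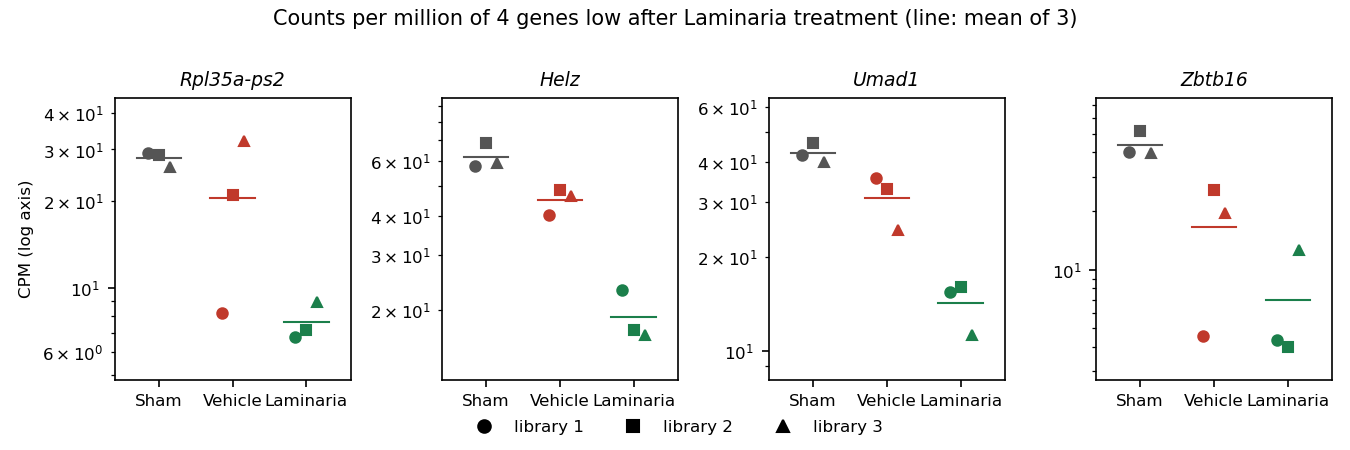
CPM (log axis) of 4 genes that were low in the Laminaria group, by library and group, with the line giving the mean of 3. For Helz and Umad1 the Laminaria libraries lie below all others, whereas for Rpl35a-ps2 and Zbtb16 vehicle library 1 (8.22 and 4.54 CPM) lies within the Laminaria range.

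Hemorrhage with vehicle was set against the same sham libraries for the same lists, so both sets of values share their sham side and are given next to each other. The expression filter was applied to each comparison, so the tested members differ in part. For vehicle and Laminaria they numbered 24 and 22 in the interferon list and 21 and 22 in the heme and iron list. In that comparison 1218 of 16414 genes rose (7.42%) and 519 fell (3.16%), and of the injury genes 190 of 324 tested were called, with a median log2 fold change of 1.70. That count rests on the libraries at hand, since edgeR called 0 genes in all without sham 1, vehicle 2 or vehicle 3. The median for vehicle and that for Laminaria were 2.30 and 1.76 for pan-myeloid genes, 2.19 and 1.77 for complement, 2.25 and 1.39 for the interferon response and 3.31 and 2.32 for chemokines. They were 0.69 and 0.59 for heme and iron handling, 1.42 and 1.13 for the lysosome, 2.48 and 2.07 for reactive astrocytes and -0.64 and -0.37 for medium spiny neurons.

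**Figure D5:**
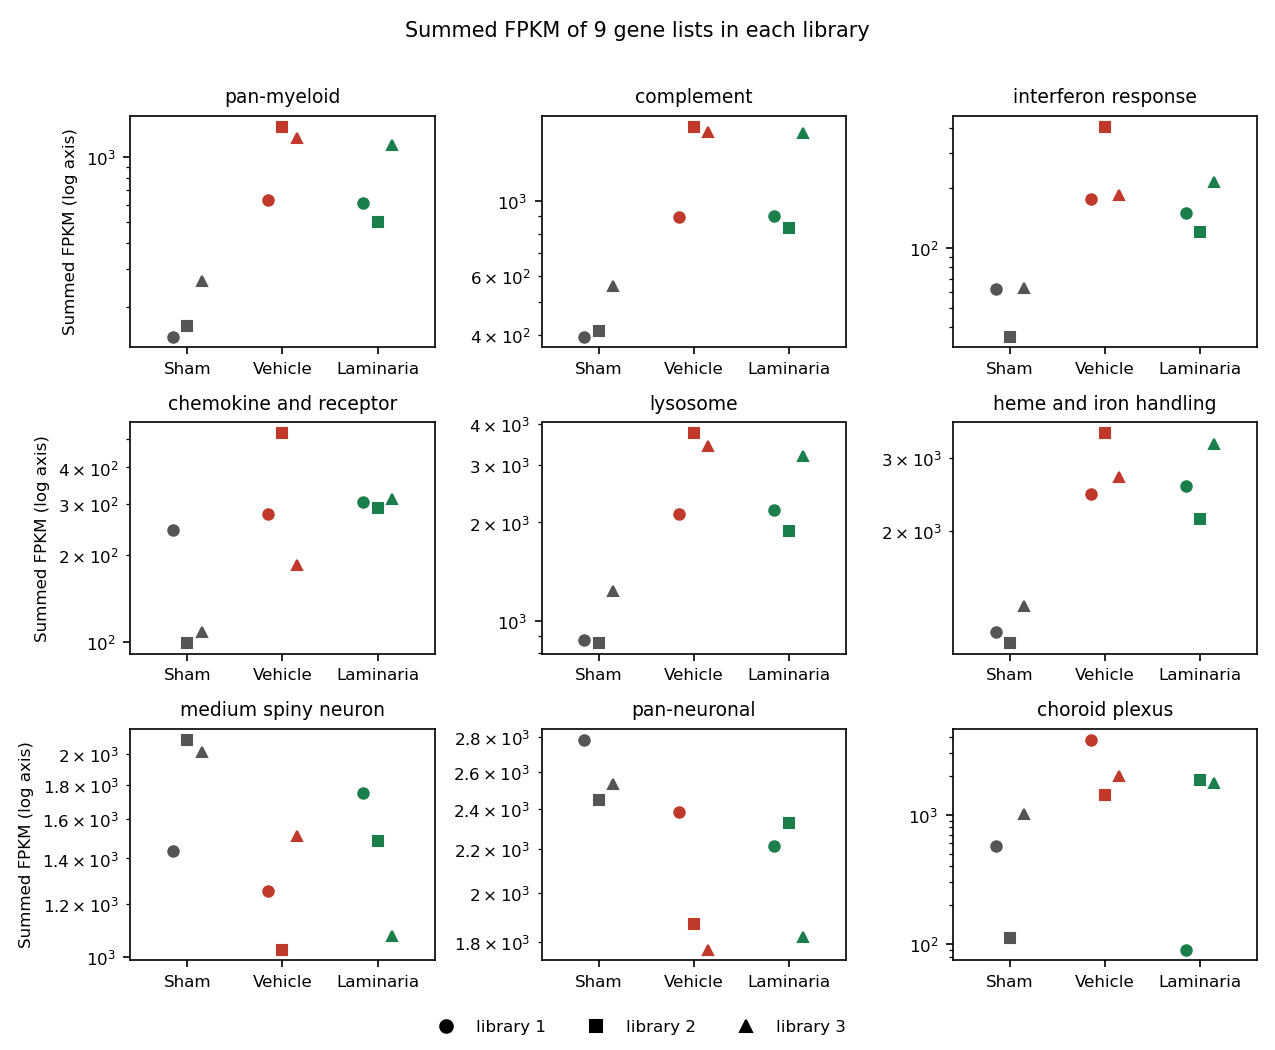
Summed FPKM (log axis) of 9 gene lists in each library, by group, with the marker shape giving the library. For pan-myeloid genes the Laminaria libraries (615, 497 and 1141) lie above the sham libraries (145.5, 164 and 264), while the choroid plexus list varies within every group.

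Whether Laminaria libraries differed from vehicle libraries was tested directly, without the sham group. Of 16654 genes, 3 passed (0.018%), and none of them was an injury gene. Of the 334 injury genes tested, 0 were called by edgeR, 3 were higher and 15 lower at an unadjusted p under 0.05, beside 1.71% and 1.65% of all genes. DESeq2 called 2 lower, Itgax and Mmp2. The median over the injury genes was -0.31 on the log2 scale, and it ranged from -0.65 without Laminaria 3 to -0.12 without vehicle 2.

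The 15 lower genes included 4 of the interferon list, Cxcl10, Rsad2, Usp18 and Ifit3, and the 4 class II genes Cd74, H2-Aa, H2-Ab1 and H2-Eb1. Cxcl10 was at 18.4, 192.5 and 14.1 CPM in the vehicle libraries and at 9.54, 7.84 and 9.79 in the Laminaria libraries, so that vehicle 2 made most of the difference of -3.04. Cd74 was at 33.0, 62.7 and 83.2 CPM in the vehicle libraries and at 17.4, 9.83 and 36.7 in the Laminaria libraries, with overlap, a log2 difference of -1.48 (SE 0.53). Itgax, the CD11c chain of complement receptor CR4, was at 5.42, 8.05 and 8.10 CPM against 1.99, 1.66 and 3.78, without overlap, a log2 difference of -1.53 (SE 0.36, adjusted p = 0.951, edgeR). The 3 higher genes were Cd163 (0.83), Heph (0.39) and Hpx (2.80), all members of the heme and iron list. That list as a whole had a median log2 difference of 0.06, with 12 of 22 tested genes positive. Hpx was far higher in Laminaria 1 than in Laminaria 2 and 3, and Cd163 is also a listed gene of border macrophages.

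For the complement genes with which the study was concerned, the log2 difference between Laminaria and vehicle was -0.39 (SE 0.39) for C1qa, -0.78 (SE 0.79) for C3 and -0.16 (SE 0.15) for Itgam. For Hmox1 it was -0.14 (SE 0.29). None passed, with adjusted p-values of 0.951 to 0.964 from edgeR, and the SEs leave room for differences in either direction.

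The Laminaria libraries followed an order among themselves that ran through the injury response, and so did the vehicle libraries. By summed level, Laminaria 3 (labelled day 6) was the highest of its group in 19 of the 21 injury lists, and Laminaria 2 (labelled day 5) the lowest in 18. Among the vehicle libraries, all labelled day 3, vehicle 2 was the highest in 20 and vehicle 1 the lowest in 20. Among the sham libraries, sham 3 was the highest in 16. In 19 of the 21 lists all Laminaria libraries still lay above all sham libraries, as they did in 5 of 12 lists of resident cells. With 1 Laminaria library per day, the day and the single library cannot be told apart.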

How the data were processed

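RNA of 9 mouse brain libraries in 3 groups was measured by Illumina sequencing. Per gene and library, the table that the authors deposited gives a raw count (whole numbers) and an FPKM value. The submitters' processing notes name HISAT2 2.0.4, StringTie 1.3.4, cutadapt 1.9, FastQC 0.10.1 and a rat build (Rnor_6.0), whereas the identifiers are mouse, and 94.4% of 55141 genes found in the GENCODE vM21 annotation of GRCm38 had its start and end within 1 base. How counts were made, on which annotation and strand, is not given in the sources used here. Overlapping, antisense and near-identical genes may therefore share reads. The FPKM listed by the authors where the count is 0 (0.0001) was set to 0. Low counts piled up at steps of 3.69 to 3.77, so a fragment appears to add several counts. Totals were 51307799 to 74649716 per library. All value columns were mapped to samples by the tag in each title.

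The deposited counts of genes whose FPKM averaged 0.5 or more in the 6 libraries compared were tested in R 4.3.3 by the quasi-likelihood test of edgeR 4.0.16 after TMM scaling, with Benjamini-Hochberg adjustment over all genes tested and a threshold of 0.05, with only the 2 groups compared in the fit and no covariate. CPM values were scaled by TMM over the 9 libraries, and figures and tables were made in Python 3.11.15 (pandas 2.3.3, numpy 2.4.6, matplotlib 3.10.9). The tests were first tested on simulated data. No source states that libraries are separate mice, so p-values measure the spread between libraries, which was far larger than counting noise in every pair of replicates. Counting floors cover counting error only.

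Named genes were those the study is about, the called genes, then the smallest p without overlap up to 12 in each direction (unnamed genes and pseudogenes left out), the most abundant members of each list, and called genes shared with the comparison against vehicle, of which there were 0. Other list members and the order of libraries were chosen after their values were seen. The comparison, its lists and members were chosen with earlier results of these data known. Alternatives were other scaling (size factors of DESeq2, upper quartile), DESeq2 1.42.0, limma 3.58.1 on log2(FPKM + 1) and log2(FPKM + 0.1), other filters, a fit of all 9 libraries, a block for the replicate number, counts divided by the step, and leaving out each library. Some genes of the lists are not reported here by name.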

Additional observations from a re-analysis of the deposited data

Results flagged for a closer look

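The 3 genes that passed the direct test of Laminaria against vehicle are listed here because that contrast is the difference between the effects of both treatments against sham. Zfp180, a zinc finger gene, was 3.09 higher on the log2 scale in the Laminaria libraries (standard error 0.21, adjusted p = 0.0398, edgeR), at 70.4, 63.3 and 41.8 CPM against 6.88, 6.98 and 6.82 in the vehicle libraries. Sham 1 stood with the Laminaria libraries for Zfp180, at 70.0 CPM, and sham 2 and 3 at 12.6 and 10.2, so the sham group was itself divided.

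Pde6d, which encodes a carrier of prenylated proteins, had a log2 difference of -1.51 (standard error 0.11, adjusted p = 0.0398, edgeR), at 16.8, 19.5 and 16.1 CPM against 48.7, 50.7 and 50.5, with the sham libraries at 20.4, 42.2 and 40.6. Aurkaip1 had one of -1.19 (standard error 0.09), at 20.9, 21.7 and 23.2 CPM against 47.3, 51.6 and 51.5, with the sham libraries at 23.1, 32.4 and 36.4. In both genes sham 1 was again the sham library nearest to the Laminaria group.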

How the results depend on the processing

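Against sham, the count of 3 genes became 0 with DESeq2's size factors in edgeR, 0 with upper quartile scaling, 0 without a filter and 0 with edgeR's own filter, where edgeR had 3023, 2901, 3732 and 3502 genes at an unadjusted p under 0.05. It was 1326 by DESeq2, 5 by limma with a pseudocount of 1, 16 with all 9 libraries in 1 fit and 5 on counts divided by the step. Leaving out 1 library gave 0 to 9 genes, with the 0 without Laminaria 1 (2978 at an unadjusted p under 0.05) and the 9 without Laminaria 3. The 3 genes were called again by DESeq2, by limma with a pseudocount of 1 and on the divided counts, and Ccl7 and Rpl35a-ps2 by limma with a pseudocount of 0.1. With all 9 libraries in 1 fit, only Tagln of the 3 was among the 16 genes called.

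Over all genes, the correlation of same-numbered deviations in the Laminaria and sham groups was -0.107, 0.003 and 0.114. By summed level, library 3 was the highest of its group in 16 of the 21 injury lists for sham and in 19 for Laminaria. Pairing by number within the injury genes was not tested. With the replicate block 302 genes were called against sham (293 higher and 9 lower, the 3 genes among them). Of the 309 injury genes tested, it called 95 higher and 0 lower. The block gave 0 genes against vehicle (538 at an unadjusted p under 0.05) and 839 for vehicle against sham.

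Against vehicle, the count of 3 was 48 by DESeq2 and 1 with all 9 libraries, and leaving out 1 library gave 0 to 1 (1117 at an unadjusted p under 0.05 without vehicle 1, and 357 without Laminaria 1). For vehicle against sham the count of 1737 was 3547 by DESeq2, and leaving out 1 library gave 0 to 2741.

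Of the log2 fold changes of 103 named genes under the alternatives, 1515 kept direction and side of the threshold, 101 passed only under the alternative and 32 no longer passed. No called value changed sign. Of the list medians, 337 moved by less than 1 SD, and the 14 others all came from leaving out 1 library. Apoe, Nfkbia, Slc2a1, Bcas1, Enpp2 and mt-Co1, none of them called, changed sign under some setting. The cause of these shifts was not tested. Depth limits what can be said of Ly6g, Il1b and Tnf, which had few or no counts.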

Other observations

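Laminaria libraries lay outside the range of the 6 other libraries in either direction for a small set of genes, which were picked out after their values were seen. How many genes would do so by chance was not tested. Of 16163 genes tested against both groups, 148 were higher and 159 lower than in every sham and vehicle library. By at least 2-fold against both groups, 11 were higher and 9 lower, and of these 0 and 4 had a mean of at least 10 CPM. The 4 were Helz and Umad1, Arpc5, a subunit of the actin-nucleating Arp2/3 complex, and Dnal1, an axonemal dynein light chain. Arpc5 was at 26.1, 25.9 and 28.7 CPM in the Laminaria libraries, at 74.1, 83.4 and 38.6 in the sham libraries and at 85.9, 45.8 and 115 in the vehicle libraries.

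The 18 genes listed for thalamus and hypothalamus had a median log2 fold change of -0.17 against sham, and the neuropeptide gene Oxt stood at the upper end. Oxt, oxytocin, was at 3.83, 0.676 and 1.53 CPM in the sham libraries and at 7.24, 8.76 and 13.7 in the Laminaria libraries, without overlap (log2 fold change 2.29, standard error 0.62). Avp, vasopressin, was at 20.6, 2.04 and 3.18 CPM against 6.59, 11.6 and 56.7, with overlap.

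Some genes took values far apart within a group. Of 10974 genes with a mean of at least 10 CPM, 87 spanned at least 5-fold between the sham libraries (0.793%) and 80 between the Laminaria libraries (0.729%).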
